A study of Homo sapiens with 6 samples.

Results

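The genes described here are 10 secreted cytokines and chemokines that tumour cells can make themselves: IL6, IL11, LIF, CSF2, CSF3, IL1A, IL1B, CXCL1, CXCL2 and CXCL8. They were chosen by name, and they are 10 of the 60675 genes in the count files. Their transcripts were measured by RNA-seq in the breast carcinoma line MDA-MB-231, which lacks hormone receptors and has a mesenchymal expression pattern, in 2 groups of 3 wells. The vitamin C group received sodium ascorbate at 100 µM for 3 days, with fresh medium before each daily dose. The control group is the same line without vitamin C, and no gene was altered in either group. Both groups are a single cell line in culture, so the stroma and immune cells that make and receive these proteins in a tumour are not part of the model.

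IL-6, IL-11 and LIF share the receptor subunit IL6ST and signal through JAK kinases and the transcription factor STAT3. GM-CSF (from CSF2) and G-CSF (from CSF3) act on myeloid cells, the interleukin-1 proteins start inflammatory signalling, and CXCL1, CXCL2 and CXCL8 attract neutrophils. Such genes are commonly switched on by NF-kB and AP-1, and their mRNAs are short-lived because AU-rich elements in the 3′ UTR recruit decay proteins of the ZFP36 family, while ZC3H12A cleaves such mRNAs at stem-loops. Basal-like breast cancer lines are known for high output of several of these proteins.

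The AU-rich element is the feature that these transcripts share in sequence, so the densest 30-base stretch of each 3′ UTR is shown here from the GENCODE 44 canonical transcript. It is given as DNA letters on the transcript's strand, 5′ to 3′, with each ATTTA pentamer in capitals.
IL6: tatttttaATTTAttaatATTTAaatatgt
IL11: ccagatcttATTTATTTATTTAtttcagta
LIF: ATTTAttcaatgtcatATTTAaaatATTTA
CSF2: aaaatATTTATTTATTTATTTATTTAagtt
CSF3: atgtATTTAtctctATTTAatATTTAtgtc
IL1A: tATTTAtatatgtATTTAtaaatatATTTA
IL1B: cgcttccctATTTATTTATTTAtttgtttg
CXCL1: aagtcttctATTTATTTATTTAttcattag
CXCL2: cttctATTTATTTATTTATTTATTTAtttg
CXCL8: cctATTTAttATTTAtgtATTTATTTAagc
Each of the 10 3′ UTRs held at least 5 ATTTA pentamers, the range running from 5 in IL1A to 10 in CXCL2. The comparison was with 7725 canonical 3′ UTRs of genes tested here, of the same span of lengths, 318 to 3198 bases. Of these, 77.7% held at least 1, 44.5% at least 3 and 26.7% at least 5, and the median was 2. Since 5 is the lowest count among the 10, that all 10 reach it follows from the cutoff. The longer nonamer TTATTTATT, searched on the same strand and overlapping the pentamer, was found in 7 of the 10 (6 copies in IL11, 5 in CXCL2, 3 each in CSF2 and CXCL1, 2 each in LIF and IL1B, 1 in CXCL8), against 7.29% of the 7725. It was not in the 3′ UTRs of IL6, CSF3 or IL1A. A match of this kind describes the letters only.

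**Figure D1:**
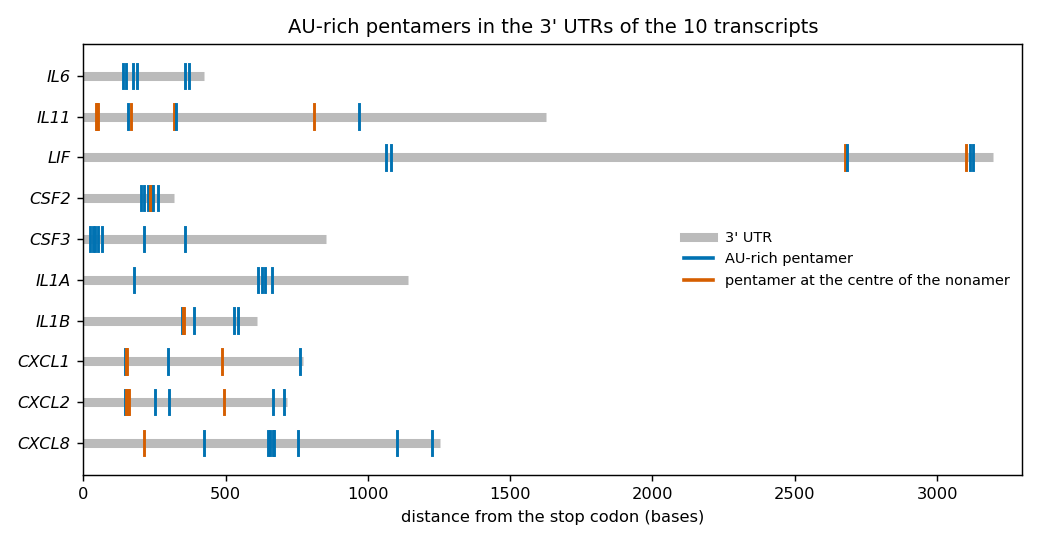
Position of each ATTTA pentamer (vertical marks) along the 3′ UTR (grey bars) of the 10 transcripts, in bases from the stop codon; orange marks are pentamers at the centre of a TTATTTATT nonamer. In CSF2 the 8 pentamers lie close together in a 3′ UTR of 318 bases, whereas the 7 of LIF are spread over 3198 bases.

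Promoter sequence was taken from the RefSeq table of human GRCh38.p14, which matched 8 of the 10 genes, with 9 windows since IL1A has 2 starts. LIF and CSF3 had no entry. The 250 bases before the RefSeq start are shown for IL11, the gene that fell, for CXCL1 and CXCL2, which are close paralogs, and for CXCL8 and IL6. RefSeq starts can differ from the GENCODE gene spans given below. The IL6 window lies inside its GENCODE span, which begins at 22725884, and the CXCL8 window runs past its GENCODE start at 73740519. Capitals mark matches to GGNNTTTCC (an NF-kB type site), TGANTCA (an AP-1 type site) and TATAAA. The windows, each read 5′ to 3′ on the gene's strand, lie at chr19:55370464-55370713 (minus strand) for IL11, chr4:73869143-73869392 (plus) for CXCL1, chr4:74099196-74099445 (minus) for CXCL2, chr4:73740319-73740568 (plus) for CXCL8 and chr7:22726950-22727199 (plus) for IL6.
IL11: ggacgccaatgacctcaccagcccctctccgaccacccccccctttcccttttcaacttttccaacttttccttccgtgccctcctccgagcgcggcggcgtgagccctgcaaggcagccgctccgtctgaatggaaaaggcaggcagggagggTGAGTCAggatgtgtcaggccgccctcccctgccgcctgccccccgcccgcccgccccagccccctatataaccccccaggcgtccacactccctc
CXCL1: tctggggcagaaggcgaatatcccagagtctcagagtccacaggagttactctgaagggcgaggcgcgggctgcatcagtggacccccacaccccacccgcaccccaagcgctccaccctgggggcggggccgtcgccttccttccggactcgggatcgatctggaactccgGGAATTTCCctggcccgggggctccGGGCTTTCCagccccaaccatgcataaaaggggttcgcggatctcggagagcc
CXCL2: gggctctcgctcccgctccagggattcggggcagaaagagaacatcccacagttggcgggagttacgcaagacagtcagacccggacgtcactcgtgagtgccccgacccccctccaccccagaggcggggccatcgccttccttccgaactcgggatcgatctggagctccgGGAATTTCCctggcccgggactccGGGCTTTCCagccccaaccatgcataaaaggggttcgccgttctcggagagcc
CXCL8: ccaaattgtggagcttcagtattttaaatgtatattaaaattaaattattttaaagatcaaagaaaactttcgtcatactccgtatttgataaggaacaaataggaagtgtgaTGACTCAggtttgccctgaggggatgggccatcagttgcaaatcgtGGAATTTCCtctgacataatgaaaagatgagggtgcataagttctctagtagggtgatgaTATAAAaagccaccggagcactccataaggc
IL6: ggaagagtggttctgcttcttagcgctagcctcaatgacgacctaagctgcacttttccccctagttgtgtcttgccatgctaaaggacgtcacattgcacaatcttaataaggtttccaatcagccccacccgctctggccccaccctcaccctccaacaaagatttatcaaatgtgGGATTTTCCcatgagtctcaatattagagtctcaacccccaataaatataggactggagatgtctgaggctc
Both strands were searched. The NF-kB type motif was in 4 of the 9 windows (2 copies each in CXCL1 and CXCL2, 1 each in CXCL8 and IL6), against 5.48% of the 35116 windows in the table. The AP-1 type motif was in 4 of the 9 (IL11, CXCL8 and both starts of IL1A), against 6.57%. The 2 IL1A windows overlap and are not independent. Their AP-1 type match 12 bases before start 1 is the same site as that 105 bases before start 2, and window 2 held a further match at 55 bases. TATAAA was in 2 windows, CXCL8 and 1 start of IL1A, against 10.7%. The hypoxia element core ACGTG was in the 2 IL1A windows alone, against 18.5%, and is 1 site that both windows cover. None of the 4 motifs was in the windows of CSF2 or IL1B. The CXCL1 and CXCL2 windows were identical at 186 aligned bases, 74.4% of 250, and both carry their NF-kB type matches 53 bases before the start and again at 78 bases (CXCL1) or 77 bases (CXCL2) before it. CXCL8, by contrast, was identical to CXCL1 at 44.8% of the window, counted in the same way.

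Total counts in genes were 13434130, 14225257 and 19553914 in the vitamin C libraries, against 17664345, 22373591 and 20189554 in the control libraries. Unmapped read pairs were 40.7%, 49.5% and 24.7% of the total in vitamin C libraries 1, 2 and 3, against 24.2%, 34.4% and 32.9% in the controls. Mitochondrial transcripts took 1.79%, 1.71% and 1.01% of gene counts in the vitamin C libraries, against 1.03% to 1.18% in the controls. Vitamin C libraries 1 and 2 thus stand apart from the other 4. For cytokines called by either tool, edgeR values are given with and without each. DESeq2 was not rerun with a library left out. All 6 markers of a mesenchymal line were expressed, and VIM, the intermediate filament vimentin, averaged 1256 ± 64.1 CPM (counts per 1e6 gene counts, TMM-normalized) in vitamin C libraries and 1276 ± 45.3 CPM in control libraries (SD, n = 3 each). The lowest of the 6, FSCN1, averaged 5.57 CPM with vitamin C and 4.84 CPM in controls. Of the luminal markers, ESR1 was at 0 in all 6 libraries and PGR at 4 counts or fewer. GATA3 averaged 6.11 CPM with vitamin C and 4.66 CPM in controls, close to FSCN1, and CDH1 averaged 3.89 and 1.57 CPM. The summed luminal level, mostly ERBB2, was 57.1 to 59.8 CPM with vitamin C, against 44.4 to 48.1 CPM in controls. None of the 6 mesenchymal or 3 tested luminal markers was called by edgeR or DESeq2, and at an unadjusted edgeR p under 0.05 there were 1 higher and 1 lower among the mesenchymal and 3 higher among the luminal markers. What part these shifts had in the cytokine values was not tested.

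The 10 transcripts did not move in a single direction after vitamin C. All 10 passed the filter on low counts, CSF3 rose, IL11 fell, and 8 did not pass an adjusted p of 0.05 in edgeR's quasi-likelihood test. Across all 15261 genes tested, 7.08% were called (3.60% higher and 3.48% lower), and nothing particular to the 10 is read from their 2 calls. The median log2 fold change of the 10 was -0.04, beside 0.02 for all genes tested. At an unadjusted p under 0.05 the count was 3 higher and 4 lower, where 27.4% of all genes passed. DESeq2 called 5 of the 10, CSF3, IL1B and IL6 higher and IL11 and CXCL1 lower, beside 10.7% of the 13472 genes to which it gave an adjusted p. CSF3 and IL11 were the members called by both tools, as were 6.34% of all genes. At an adjusted p under 0.1 in both tools the count was 6 of the 10, where both tools called 13.0% of all genes and edgeR alone 16.2%. Of all calls in edgeR, 50.8% were higher, a share that became 64.6% with upper-quartile scaling and 40.6% in DESeq2.

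**Figure D2:**
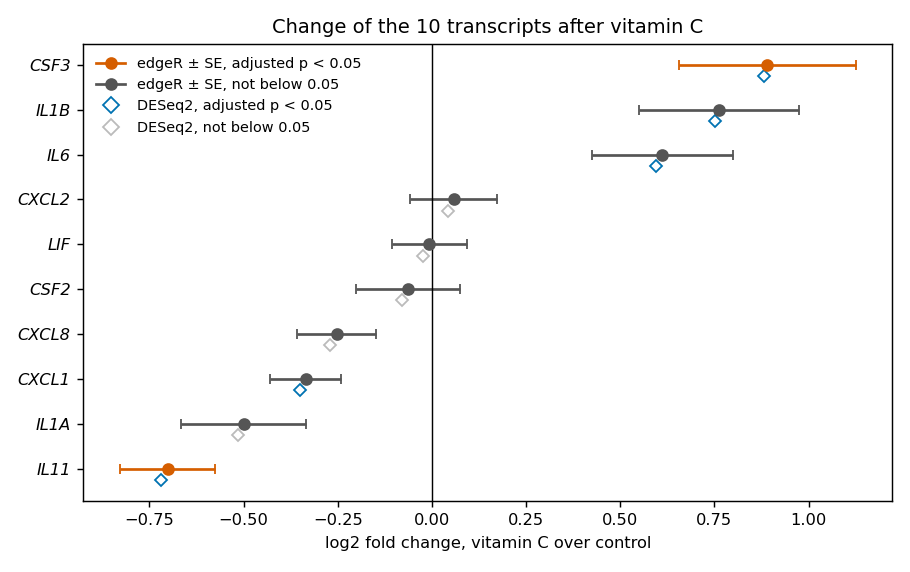
Log2 fold change of each transcript, vitamin C over control, from edgeR (circles, bars ± SE) and DESeq2 (diamonds), with 3 libraries in each group. CSF3 and IL11 lie at the ends, at 0.89 and -0.70, and both are called by both tools.

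Within the IL-6 family the 3 ligands behaved differently. IL11, an IL-6 family cytokine known for its part in bone metastasis and fibrosis, is ENSG00000095752, in the hg38 annotation on chromosome 19 from 55364382 to 55370463 on the minus strand. It stood at 9.04, 10.2 and 9.48 CPM in vitamin C libraries 1 to 3, against 17.8, 13.6 and 15.5 CPM in control libraries 1 to 3. Every vitamin C library was below every control library, and the vitamin C values were closely spaced. The means were 9.58 ± 0.591 CPM with vitamin C and 15.6 ± 2.07 CPM in controls (SD, n = 3 each), a 1.63-fold fall (log2 fold change -0.70, SE 0.13, edgeR adjusted p = 0.0143). DESeq2 gave -0.72 with an adjusted p of 0.000546. Control library 1 held the highest IL11 value, and without it the log2 fold change was -0.60 and the edgeR adjusted p 0.0579; without any other single library the call stayed, between -0.80 and -0.67. Fewer producing cells and less RNA per producing cell cannot be told apart in RNA from a whole well.

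IL6 (ENSG00000136244, chromosome 7 from 22725884 to 22732002, plus strand), the founding member of the family and an autocrine growth factor of many carcinomas, had 30.2, 42.2 and 23.7 CPM in vitamin C libraries, against 23.8, 17.0 and 21.9 CPM in control libraries. Vitamin C libraries 1 and 2 were above all controls, while vitamin C library 3 lay just under the highest control, so the groups overlapped. The means were 32.0 ± 9.37 CPM with vitamin C and 20.9 ± 3.54 CPM in controls. Its log2 fold change of 0.61 (SE 0.19) did not pass edgeR's test (adjusted p = 0.0653) and passed in DESeq2 (0.60, adjusted p = 0.0147). The libraries with high IL6 are those with the most unmapped reads, and what part this played was not tested. Without vitamin C library 1 the log2 fold change was 0.65 (edgeR adjusted p = 0.115), without library 2 it was 0.36 (0.183), and without library 3 it was 0.80 (0.00894). On the other strand, the antisense gene IL6-AS1 shares 428 exonic bases with IL6, 9.91% of the IL6 exons, and STEAP1B shares 46 bases (1.06%).

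LIF (ENSG00000128342, chromosome 22 from 30240453 to 30246759, minus strand), which is best known for holding stem cells undifferentiated, was at 42.6, 42.1 and 33.7 CPM in vitamin C libraries, against 41.0, 37.9 and 39.7 CPM in control libraries. The groups overlapped, and their means lay at 39.4 ± 5.0 CPM with vitamin C and 39.5 ± 1.57 CPM in controls. Expressed as a log2 fold change the difference was -0.01 with an SE of 0.10 (edgeR adjusted p = 0.968). The antisense genes LIF-AS1 and LIF-AS2 share 86 and 83 exonic bases with LIF, 2.22% and 2.14% of the LIF exons.

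The colony-stimulating factors likewise split. CSF3 encodes G-CSF, which drives the production of neutrophils and is made by some breast tumours. The gene is ENSG00000108342, on chromosome 17 from 40015361 to 40017813 on the plus strand. It gave 80, 76 and 70 counts in vitamin C libraries, against 53, 46 and 59 counts in control libraries, which is 5.93, 5.51 and 3.51 CPM with vitamin C against 3.02, 2.04 and 2.93 CPM in controls. Every vitamin C library was above every control, with vitamin C library 3 the closest to them. CSF3 averaged 4.98 ± 1.29 CPM with vitamin C and 2.67 ± 0.541 CPM in controls (SD, n = 3 each), a 1.85-fold rise (log2 fold change 0.89, SE 0.23, edgeR adjusted p = 0.0454; DESeq2 adjusted p = 0.0239). The call is close to the threshold. It was lost in limma-voom (0.86, adjusted p = 0.0577) and after thinning all libraries to the shallowest depth (edgeR, 0.79, adjusted p = 0.077). It was also lost without vitamin C library 1 (0.74, adjusted p = 0.127) or 2 (0.80, 0.108) and without control library 1 (0.98, 0.118), 2 (0.72, 0.148) or 3 (0.97, 0.068), and it held without vitamin C library 3 (1.11, 0.00797). The higher vitamin C values again belong to libraries 1 and 2, and the part of their unmapped reads in this was not tested.

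CSF2 (ENSG00000164400, chromosome 5 from 132073789 to 132076170, plus strand), encoding GM-CSF, a growth factor for granulocytes and macrophages, was at 37.7, 29.6 and 27.2 CPM in vitamin C libraries, against 38.7, 28.2 and 31.8 CPM in control libraries. The groups overlapped over nearly their whole ranges. On the log2 scale the difference was -0.06 with an SE of 0.14 (edgeR adjusted p = 0.80).

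The interleukin-1 genes lie near each other on chromosome 2 and their values pointed in opposite directions, though neither passed edgeR's test. IL1B (ENSG00000125538, 112829751 to 112836816, minus strand) encodes the secreted form that caspase-1 matures. It had 7.26, 4.06 and 5.27 CPM in vitamin C libraries, against 3.19, 3.60 and 2.93 CPM in control libraries, from 56 to 105 counts with vitamin C and 56 to 81 in controls. All 3 vitamin C values were above the controls, library 2 by the least. The log2 fold change was 0.76 (SE 0.21, edgeR adjusted p = 0.0516), and DESeq2 called it (0.75, adjusted p = 0.0398). Vitamin C library 1 holds the highest IL1B value, and without it the log2 fold change was 0.53 (edgeR adjusted p = 0.155). IL1B passed edgeR's test without vitamin C library 2 (0.93, adjusted p = 0.0321) or 3 (0.80, 0.0469), and did not pass without control library 1, 2 or 3 (adjusted p = 0.155, 0.107 and 0.116).

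IL1A (ENSG00000115008, 112773925 to 112784493, minus strand) encodes an alarmin that is active as a precursor and is released by dying cells. It had 7.64, 8.98 and 6.42 CPM in vitamin C libraries, against 13.1, 9.86 and 9.50 CPM in control libraries. The vitamin C values were all below the controls, and control library 1 stood above the rest. The log2 fold change was -0.50 (SE 0.17, edgeR adjusted p = 0.0834; DESeq2 adjusted p = 0.063).

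The neutrophil chemokines lie in a cluster on chromosome 4, and CXCL8 and CXCL1 had the highest CPM of the 10 in both groups. CXCL8 (ENSG00000169429, 73740519 to 73743716, plus strand), interleukin-8, had 205.9, 223 and 206.8 CPM in vitamin C libraries, against 299.6, 233.5 and 224.7 CPM in control libraries. The vitamin C libraries were all lower, but library 2 lay just under the lowest control, and control library 1 was far above the other controls. The log2 fold change was -0.25 (SE 0.10, edgeR adjusted p = 0.143; DESeq2 adjusted p = 0.0868), and without control library 1 it was -0.12.

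CXCL1 (ENSG00000163739, 73869393 to 73871308, plus strand), GRO-alpha, had 101.3, 96.8 and 119.9 CPM in vitamin C libraries, against 145.9, 126.7 and 129.3 CPM in control libraries. Every vitamin C library was below every control, library 3 being the nearest. The means were 106 ± 12.2 CPM with vitamin C and 134 ± 10.4 CPM in controls (SD, n = 3 each). The log2 fold change was -0.34 (SE 0.09), just short of edgeR's threshold (adjusted p = 0.0525) and past it in DESeq2 (-0.35, adjusted p = 0.0142). Vitamin C libraries 1 and 2 hold the lowest CXCL1 values. Without library 1 the log2 fold change was -0.31 (edgeR adjusted p = 0.146), without library 2 it was -0.28 (0.125), and without library 3 it was -0.44 and passed (0.0102). It did not pass without control library 1, 2 or 3 (adjusted p = 0.178, 0.106 and 0.075).

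CXCL2 (ENSG00000081041, 74097040 to 74099196, minus strand), GRO-beta, had 33.8, 25.5 and 29.1 CPM in vitamin C libraries, against 31.6, 25.9 and 27.5 CPM in control libraries. The groups overlapped completely, the control values lying inside the span of the vitamin C values. The log2 fold change was 0.06 (SE 0.12, edgeR adjusted p = 0.783). The third paralog, CXCL3, had a log2 fold change of 0.30 (adjusted p = 0.389). No stretch as long as a sequencing read is shared among the canonical transcripts of CXCL1, CXCL2, CXCL3 and CXCL8. With the reads of CXCL1, CXCL2 and CXCL3 summed, the log2 fold change was -0.23 (edgeR adjusted p = 0.113).

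**Figure D3:**
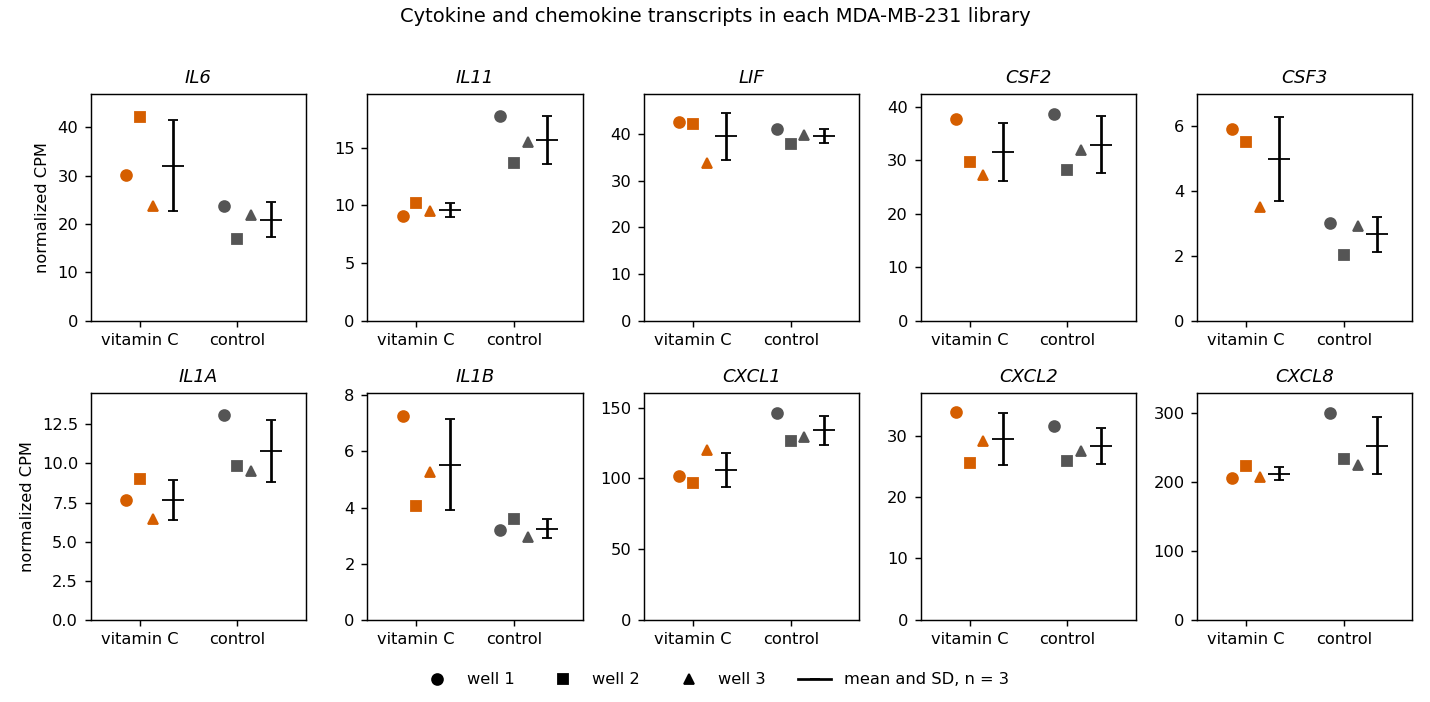
Normalized CPM of each transcript in every library, vitamin C left and control right, with the mean and SD of 3 libraries as a bar; each panel starts at 0 and has its own scale. IL11, IL1A, CXCL1 and CXCL8 are lower in all vitamin C libraries than in any control, CSF3 and IL1B are higher, and IL6, LIF, CSF2 and CXCL2 overlap.

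The libraries of the groups did not overlap for 6 of the 10 genes, 2 with vitamin C above and 4 below, where 32.3% of all genes tested did not overlap (15.7% above and 16.6% below). An exact two-sided permutation test of 3 against 3 cannot give a p under 0.1, and these 6 genes reached that value. The summed level of the 10 transcripts was 481.3, 487.9 and 465 CPM in vitamin C libraries, against 617.6, 498.3 and 505.8 CPM in control libraries. This sum is mostly CXCL8 and CXCL1, and control library 1 is high for both. CXCL8 alone made up 42.8% to 45.7% of the sum with vitamin C, against 44.4% to 48.5% in controls, and IL6 made up 5.09% to 8.64% with vitamin C, against 3.40% to 4.34% in controls.

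**Figure D4:**
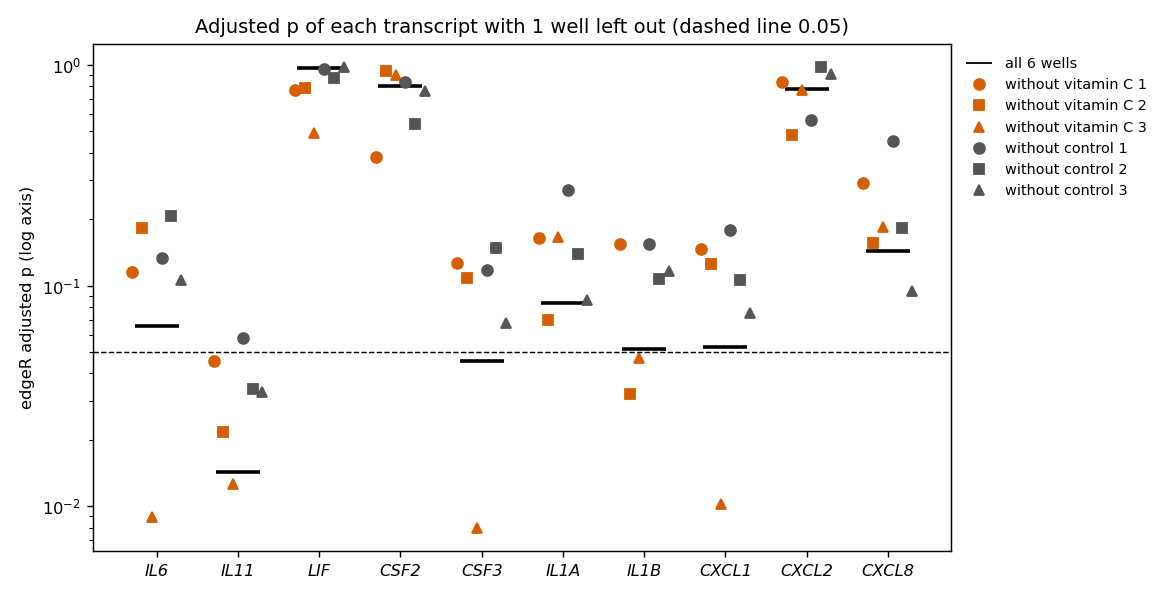
The edgeR adjusted p of each transcript (log axis) with all 6 libraries (black bar) and with each one left out (symbols, n = 5 libraries each); the dashed line is 0.05. IL11 is above the line without control 1 only, CSF3 is below it only with all libraries or without vitamin C 3, and leaving out vitamin C 3 takes IL6, CSF3, IL1B and CXCL1 under it.

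Per kilobase of exon, with the exons of all GENCODE transcripts of a gene merged, the order was nearly shared by the groups. With vitamin C the mean levels were 81.9 CPM per kb for CXCL8, 77.8 for CXCL1, 40.0 for CSF2, 21.1 for CXCL2, 10.2 for LIF, 7.41 for IL6, 3.81 for IL1A, 3.58 for IL11, 2.24 for CSF3 and 1.84 for IL1B. In controls the mean levels were 98.4 CPM per kb for CXCL1, 97.6 for CXCL8, 41.7 for CSF2, 20.3 for CXCL2, 10.2 for LIF, 5.83 for IL11, 5.36 for IL1A, 4.84 for IL6, 1.20 for CSF3 and 1.077 for IL1B. On this scale CXCL8 and CXCL1 overlapped in both groups, as did CSF3 and IL1B, so their order is not settled. The order between genes also depends on the length used. CXCL8 has 2588 merged exonic bases and a canonical transcript of 1642 bases, against 1362 and 1174 for CXCL1. Levels per canonical transcript length were not computed. IL6 stood at rank 6 with vitamin C, against rank 8 in controls, and IL11 at rank 8 with vitamin C, against rank 6 in controls. In controls, however, IL11, IL1A and IL6 were neighbours whose ranges overlapped, while with vitamin C the range of IL6 cleared that of IL1A. With vitamin C the range of IL6 overlapped that of LIF above it, and the range of IL1A overlapped that of IL11. The vitamin C ranks of IL6 and IL11 are thus not settled either.

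Ratios within a library do not depend on scaling, and 5 pairs of related genes were compared in this way, chosen after their values were seen. The log2 ratio of IL6 to IL11 was 1.74, 2.05 and 1.32 in vitamin C libraries, against 0.42, 0.32 and 0.50 in control libraries, a difference of 1.29. The ratio of IL1B to IL1A was -0.07, -1.15 and -0.29 with vitamin C, against -2.04, -1.46 and -1.69 in controls, a difference of 1.23. In both pairs all vitamin C libraries were above all controls. CSF3 to CSF2 differed by 0.95, with vitamin C between -2.96 and -2.43 and controls between -3.79 and -3.44. CXCL1 to CXCL2 differed by -0.39, with vitamin C between 1.58 and 2.04 and controls between 2.21 and 2.29, again without overlap. Since the pairs were picked from the values, these differences are a description with no test. The ratio of CXCL1 to CXCL8 differed by -0.10, and its groups overlapped.

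Among 31 other cytokines and chemokines, 17 passed the filter, 2 rose, 1 fell and 14 did not pass the test, with a median log2 fold change of 0.13. Across all genes tested, 3.60% were called higher and 3.48% lower. CX3CL1, fractalkine, a membrane-bound chemokine for monocytes and T cells, stood at 13.42, 12.02 and 12.75 CPM in vitamin C libraries, against 4.78, 8.12 and 7.21 CPM in control libraries (log2 fold change 0.91, edgeR adjusted p = 0.0163). It was called in every alternative run. IL18, a relative of IL-1 that caspase-1 also matures, averaged 9.93 ± 0.515 CPM with vitamin C and 6.76 ± 1.11 CPM in controls (0.55, adjusted p = 0.0442), with adjusted p of 0.119 and 0.0744 without vitamin C library 1 or 2 and 0.146 and 0.126 without control library 1 or 2. CXCL11, an interferon-induced T-cell chemokine, averaged 2.12 ± 0.512 CPM with vitamin C and 3.62 ± 0.0283 CPM in controls (-0.80, adjusted p = 0.0427). DESeq2 did not call CXCL11 (adjusted p = 0.0558), and edgeR lost it with thinning (0.0534). The CXCL11 call held without vitamin C library 1 and was lost without any of the other 5 (adjusted p 0.0785 to 0.128). CXCL6, CXCL12, CXCL14, CCL7 and IL33 were at 0 in all 6 libraries.

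Beside 3.60% of all genes tested called higher, 1 of the 8 tested receptors and antagonists (15 listed) rose. This was IL1R1, the signalling receptor for both interleukin-1 proteins, at 43.96, 47.16 and 40.1 CPM in vitamin C libraries, against 27.6, 30.3 and 26.1 CPM in control libraries. Its log2 fold change was 0.64 (SE 0.09, edgeR adjusted p = 0.00715), and the call held under every alternative run, each library left out included. CXCR1 and CXCR2, the receptors for the neutrophil chemokines, were at 0 throughout, and IL6R, CSF2RB and CSF3R did not pass the filter. The median log2 fold change of the 8 was 0.01.

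Genes that carry and restrain these signals were tested in 3 lists, to be read beside the 7.08% of all genes called and the 27.4% at an unadjusted p under 0.05. None of the 23 tested NF-kB signalling and feedback genes was called by edgeR or by DESeq2, and at an unadjusted edgeR p under 0.05 there were 4 higher and 2 lower. BIRC3, the most abundant, averaged 454.5 ± 14.1 CPM with vitamin C and 408.3 ± 18.8 CPM in controls (log2 fold change 0.15, adjusted p = 0.184), and TNFAIP2 averaged 186.6 ± 21.2 CPM with vitamin C and 186.5 ± 19.5 CPM in controls (0.00, adjusted p = 0.995). Of 11 JAK-STAT3 genes tested, again none was called by either tool (2 higher and 1 lower at an unadjusted edgeR p under 0.05). Their most abundant, PTPN11 and JAK1, had log2 fold changes of -0.06 and 0.14 (adjusted p = 0.699 and 0.271). Of 11 AP-1 and C/EBP factors, 1 fell: CEBPG, a partner in C/EBP dimers, at 52.6, 54.0 and 54.0 CPM in vitamin C libraries, against 75.7, 69.2 and 67.1 CPM in control libraries (-0.40, SE 0.08, edgeR adjusted p = 0.0179). The CEBPG adjusted p was 0.0566 without vitamin C library 1, 0.0711 without control library 1 and 0.0667 without control library 2.

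Regulators of cytokine mRNA decay included 2 that rose and none that fell of 14 tested. Across all genes tested, 3.60% were called higher and 3.48% lower, and these shares also stand beside the interleukin-1 genes below. ZC3H12A, the RNase regnase-1 that cleaves IL6 and other cytokine mRNAs at stem-loops, had 28.6, 27.0 and 31.0 CPM in vitamin C libraries, against 21.4, 19.3 and 22.3 CPM in control libraries (log2 fold change 0.46, SE 0.10, edgeR adjusted p = 0.0231). ZFP36L2, which binds AU-rich elements of the kind printed for the 10 transcripts, had 26.0, 34.6 and 25.7 CPM in vitamin C libraries, against 20.1, 19.2 and 18.8 CPM in control libraries (0.57, SE 0.12, adjusted p = 0.0243). For both genes all vitamin C libraries were above all controls. The ZC3H12A adjusted p was 0.0596 without vitamin C library 1, 0.08 without control library 1 and 0.0999 without control library 2, and that of ZFP36L2 was 0.0832, 0.0861 and 0.0563 without control library 1, 2 or 3. Among 11 tested genes of interleukin-1 processing and release, CAST, the calpain inhibitor calpastatin, rose, with 860.6, 969.9 and 793.5 CPM in vitamin C libraries, against 617.2, 648.7 and 711.2 CPM in control libraries (0.41, SE 0.09, adjusted p = 0.0269). Calpain cleaves the IL-1 alpha precursor. DESeq2 called 2 of the 11 higher, CAST and CASP4 (0.38, adjusted p = 0.0433), beside 10.7% of all genes in either direction. In edgeR the CASP4 adjusted p was 0.0824. CASP1 was near the floor, averaging 0.698 CPM with vitamin C and 0.448 CPM in controls (log2 fold change 0.59, edgeR adjusted p = 0.387). The CAST adjusted p was 0.0652 and 0.0512 without vitamin C library 1 or 2, and 0.121 and 0.101 without control library 1 or 2.

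Markers of leukocytes, endothelium and fibroblasts, which can also make these cytokines, were mostly near the floor and not level between the groups. Of 15 listed, 6 passed the filter and 2 rose (CSF1R and PECAM1), beside 3.60% of all genes tested called higher. The median log2 fold change of the 6 was 0.75. The summed level of the 15 was 24.6 to 26.4 CPM with vitamin C, against 11.3 to 18.5 CPM in controls. The largest share was PDGFRB, a PDGF receptor of fibroblasts and pericytes, at 12.4, 11.5 and 13.2 CPM in vitamin C libraries, against 5.864, 9.544 and 9.001 CPM in control libraries. All its vitamin C values were above the controls (log2 fold change 0.60, edgeR adjusted p = 0.0514; DESeq2 adjusted p = 0.0244), and it was more abundant in CPM than CSF3 or IL1B in both groups. The defining leukocyte gene PTPRC had at most 2 counts in any library, while CD3E, ITGAM, AIF1, CD68, VWF and CDH5 did not pass the filter. CD14, ACTA2 and LUM passed the filter but were not called, with log2 fold changes of 0.89, 0.50 and -0.06 (edgeR adjusted p = 0.0912, 0.286 and 0.917). PDGFRB and CSF1R are neighbours on the minus strand of chromosome 5, and control library 1 was the lowest for both. CSF1R, the receptor for CSF1, had 6.45, 7.53 and 5.87 CPM in vitamin C libraries, against 1.88, 3.55 and 4.08 CPM in control libraries (1.04, SE 0.23, edgeR adjusted p = 0.0304). Its adjusted p was 0.0627 and 0.0684 without vitamin C library 1 or 2, and 0.079 and 0.0787 without control library 1 or 2. PECAM1, an adhesion protein of endothelium, averaged 2.04 ± 0.141 CPM with vitamin C and 0.958 ± 0.339 CPM in controls (1.07, edgeR adjusted p = 0.0439; DESeq2 adjusted p = 0.0675), and its call was lost without any 1 of the 6 libraries (adjusted p 0.0557 to 0.136). Whether these transcripts bear on the cytokine values was not tested.

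**Figure D5:**
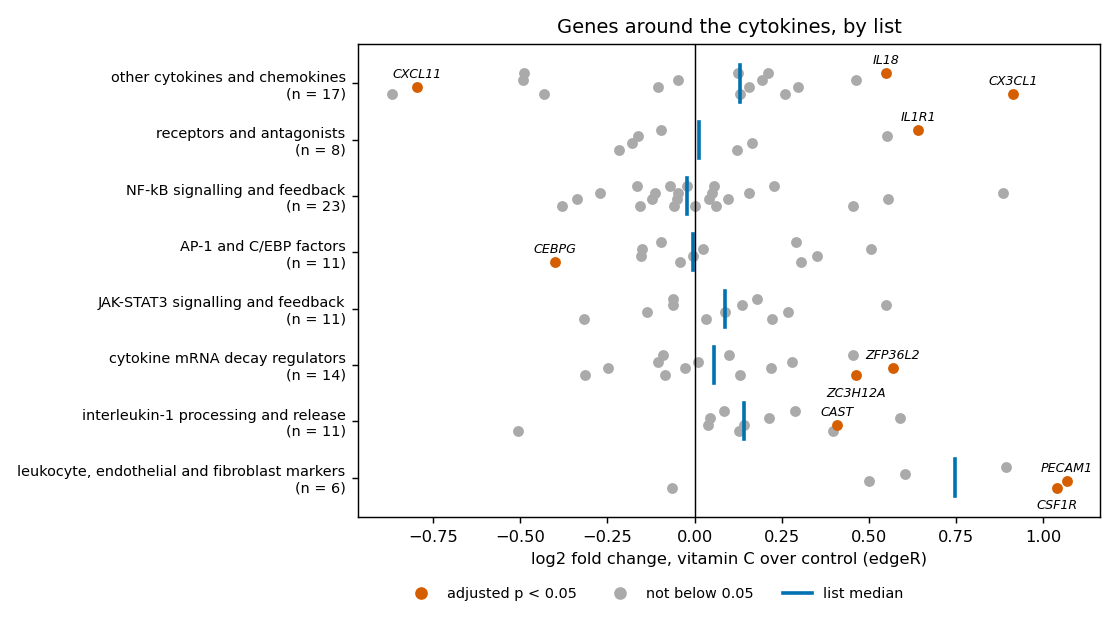
Log2 fold change, vitamin C over control, of each tested gene in 8 lists around the 10 cytokines (points), with called genes in orange and named and the list median as a blue bar. Calls are scattered over the lists, IL1R1 stands at 0.64 among receptors, and the NF-kB and JAK-STAT3 lists hold none.

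For the genes called among the 10, the profiles most like them over the 6 libraries were sought by the smallest root-mean-square difference of mean-centred log2 CPM. Those of IL11 included CGN, the tight-junction protein cingulin (difference 0.06, log2 fold change -0.75, edgeR adjusted p = 0.0421) and PROSER2 (0.08, -0.63, 0.0225). For CSF3 they were UBAP1L (0.12, 1.20, 0.0604), GAREM2 (0.13, 0.72, 0.121) and the ribosomal protein pseudogene RPL6P19 (0.13, 0.67, 0.0339), whose reads may be shared with its parent gene. None of these was among the listed cytokines or their regulators.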

How the data were processed

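Total RNA from 6 wells of MDA-MB-231 cells (3 with vitamin C, 3 controls) was depleted of ribosomal RNA and sequenced as paired ends. Per the submitters' processing notes, the authors used CASAVA 1.4, Trim Galore and STAR on hg38. Not given in the sources used here were the version of STAR, the annotation release and whether counting used strand. The deposited values are raw whole-number counts per gene with 4 summary lines per file (unmapped, multimapping, no feature, ambiguous). These took 50.6% to 69.7% of all read pairs and were left out. Multimapping pairs were thus not counted in genes. The combined table repeats the counts of the single files.

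Counts were tested with edgeR 4.0.16 (R 4.3.3): TMM factors (0.972 to 1.02), filterByExpr with a minimum count of 10, quasi-likelihood F test and Benjamini-Hochberg adjustment over all 15261 genes tested, called at 0.05. The biological coefficient of variation was 9.4%, and 1 count was worth 0.0444 to 0.0741 CPM. DESeq2 1.42.0, limma-voom (limma 3.58.1), the likelihood ratio test, other scaling factors, no filter, thinning to the shallowest library, a replicate block and libraries left out were the alternatives. Thinning was a single random draw. CPM are TMM-normalized, and log2 CPM profiles used a prior count of 2. Gene models came from GENCODE 44, which held 93.2% of the gene IDs and at least 99.73% of the counts.

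The 10 genes and the 10 lists around them (145 genes) were chosen with earlier results of these data known. Every one of the 10 is named. In each list up to 4 called genes with the smallest p were named, or the 2 most abundant where none was called, and for each called cytokine the 3 nearest profiles, of which 1 is not reported here. Other genes named were chosen after their values were seen. Replicate libraries of a group were not copies of each other (chi-square over its degrees of freedom 4.99 to 24.3 in 6 pairs). The labels do not say whether wells came from separate experiments, so the spread behind each p-value is that between these wells and may be technical.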

Additional observations from a re-analysis of the deposited data

How the results depend on the processing

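Over the alternatives run on the 10 genes, 114 of the values kept their direction and side of the threshold, 19 gained a call, 10 lost one and 9 changed sign. The sign changes were all in genes near 0, apart from a sum of genes counted with CXCL2. LIF gave 0.03 with upper-quartile scaling, 0.097 without vitamin C library 3 and 0.017 without control library 1, over a range of -0.067 to 0.097 with 1 library left out. CSF2 gave 0.034 without vitamin C library 3 and 0.064 without control library 1 (range -0.211 to 0.064), and 0.101 without vitamin C library 2 and control library 1 together. CXCL2 gave -0.051 without vitamin C library 1 and -0.008 without control library 2 (range -0.051 to 0.146). The sum of CXCL1, CXCL2 and CXCL3 gave -0.23, which is not a value of CXCL2 alone. Within it CXCL1 averaged 106 CPM with vitamin C and 134 CPM in controls, and CXCL2 averaged 29.45 and 28.33 CPM. The cause of the sign changes in single genes was not tested.

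Cytokines called higher numbered 1 in edgeR, against 2 with upper-quartile scaling, 3 each without a filter, in DESeq2 and in the likelihood ratio test, 0 in limma-voom, 0 without vitamin C library 2 and control library 1 together, and 0 to 3 with 1 library left out. Those called lower numbered 1, against 4 without a filter, 2 in DESeq2, 3 in the likelihood ratio test, 2 after thinning, and 0 to 2 with 1 library left out. At an adjusted p under 0.1 in both tools 6 were called (13.0% of all genes), against 2 at 0.05 (6.34% of all genes). Over the lists around them, 8 genes were called higher, against 14 without a filter, 15 in the likelihood ratio test, 4 without the 2 libraries together and 2 to 15 with 1 left out. There, 2 were called lower, against 7 without a filter, 1 in DESeq2, 3 in the likelihood ratio test, 1 after thinning, 0 without the 2 libraries and 0 to 2 with 1 left out. Over all genes, 549 were called higher, against 1079 without a filter, 1059 in the likelihood ratio test, 153 without the 2 libraries and 69 to 942 with 1 left out. Those called lower numbered 531, against 1166, 923 and 115 in the same 3 settings, 857 in DESeq2 and 59 to 958 with 1 left out. The fewest of both directions were called without control library 1 (69 and 59) and the most without vitamin C library 3 (942 and 958). The median of the 10 lay between -0.14 and 0.05 throughout.

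Same-numbered libraries did not deviate together (r between -0.06 and -0.02), so the numbers were not taken to pair them. With a replicate block, 0 cytokines were called higher and 1 lower, 7 listed genes higher and 1 lower, and 393 genes higher and 338 lower in all. The CSF3 log2 fold change was 0.88 with the block (edgeR adjusted p = 0.051).

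CSF3 (46 to 80 counts) and IL1B (56 to 105 counts) had the lowest counts. Thinning to the shallowest library ended the CSF3 call (edgeR adjusted p = 0.077) and brought IL1B (0.0469) and CXCL1 (0.0488) past the threshold, so the single higher call after thinning is IL1B. These values come from a single random draw, and the spread between draws was not measured. Those of IL1B and CXCL1 lie close to the threshold.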
